A study of Homo sapiens with 40 samples.

Results

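The insulin-like growth factor (IGF) transcripts were followed in HepaRG cells, a human hepatic cell line, across all groups of the study. The set holds 10 gene names out of 56568 in the deposited tables: the ligands IGF1 and IGF2, the receptor IGF1R, the acid-labile subunit IGFALS and the binding proteins IGFBP1 to IGFBP6. They were chosen by name, and the level of each was the sum of FPKM (sequenced fragments scaled by transcript length and library size) over its transcripts. Differentiated HPR 116 cultures were exposed from day 8 to day 14 in a test medium with fetal bovine serum and DMSO, which all groups shared. There were 8 groups of 5 libraries: 1 group had the solvent alone, 3 had PCB 126 (100 pM, then 10 nM, then 1 µM), 3 had glyphosate (10 µg/L, then 1 mg/L, then 0.1 g/L), and the last had 10 µg/L of Roundup. PCB 126 belongs to the dioxin-like biphenyls, ligands of the aryl hydrocarbon receptor, and Roundup is a glyphosate-based herbicide (here Grand Travaux +). The same control libraries served both the PCB 126 and the herbicide comparisons. Cultures of this line hold hepatocyte-like and biliary-like cells, and the bulk values cannot tell fewer cells of a type from less RNA per cell. The labels do not say whether libraries came from separate cultures, so the p-values measure the spread between these libraries.

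IGF1 and IGF2 are secreted growth factors that signal through IGF1R, a receptor tyrosine kinase. In blood they are carried by binding proteins, mostly in a complex of IGFBP3 with the acid-labile subunit, and the liver is a main source of IGF1, IGFALS and IGFBP1. IGFBP1 is a short-lived binding protein whose hepatic transcription is held down by insulin, while IGFBP5 and IGFBP6 are best known from mesenchymal and other non-hepatocyte cells.

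The first question was which members these cultures transcribed. FPKM is scaled by transcript length, so levels can be ranked between genes. In the control libraries, IGFBP4 was the most abundant at 134 ± 20.2 FPKM and IGFBP2 followed at 109 ± 20.996 FPKM (SD, n = 5 here and below), 2 neighbours whose libraries overlapped. IGFBP1 came next at 27.5 ± 10.5 FPKM and overlapped with IGFBP3 at 16.6 ± 4.19 FPKM. IGF1R, which also overlapped with IGFBP3, stood at 11.9 ± 3.99 FPKM. It, IGFBP5 at 8.19 ± 4.41 FPKM and IGFBP6 at 6.20 ± 2.00 FPKM also lay within each other's spread. IGF1 was far lower at 1.70 ± 0.659 FPKM. IGFALS stood at 0.140 ± 0.0487 FPKM, and IGF2 was listed at 0 in 24 of the 40 libraries and reached at most 0.0306 FPKM. The 2 growth factors and the acid-labile subunit were thus the lowest members, and IGFBP1 to IGFBP4 lay above the receptor in mean level.

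**Figure D1:**
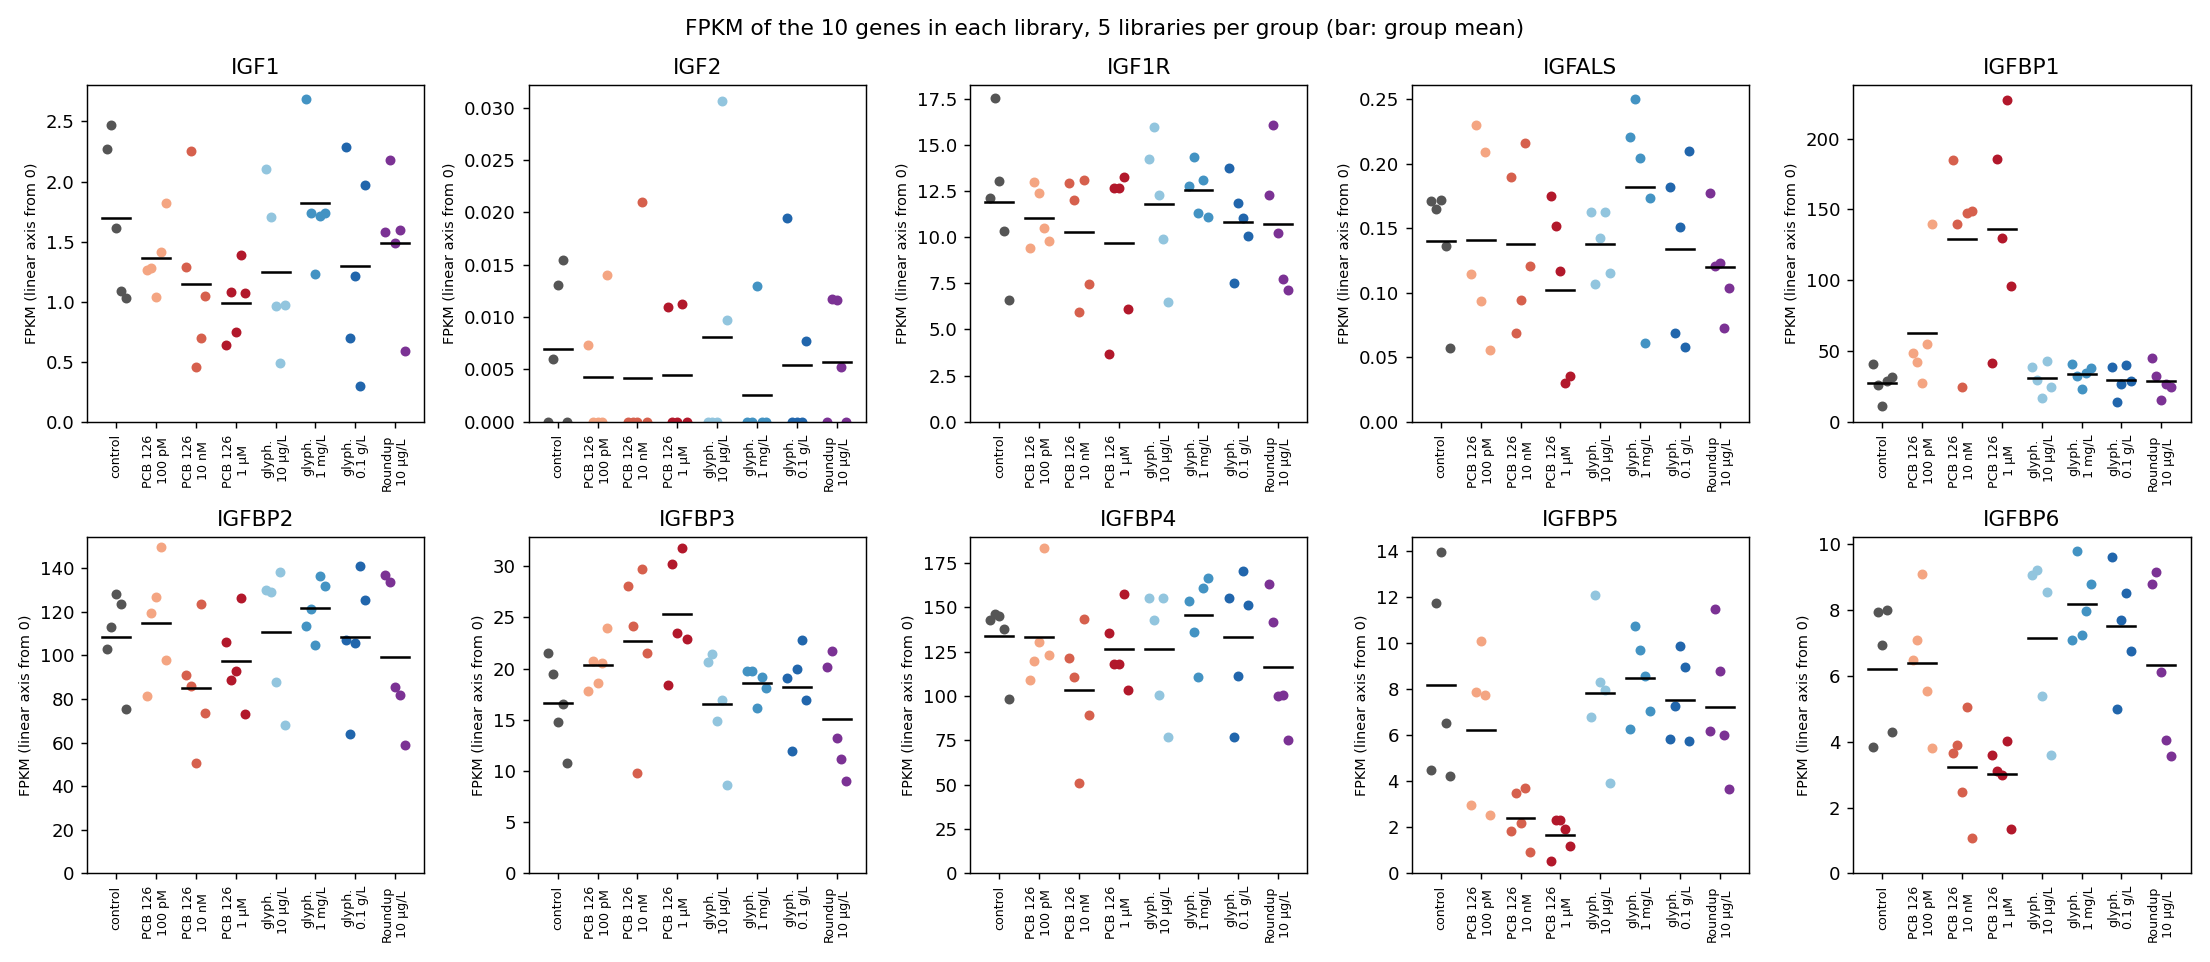
Each panel plots 1 gene: FPKM on a linear axis from 0 against the 8 groups, with 1 point per library and a bar at the group mean. IGFBP1 lies between 11.5 and 45.1 FPKM in all 25 control and herbicide libraries and reaches 227 FPKM at PCB 126 1 µM, while IGFBP5 falls below every control library at 10 nM and 1 µM.

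The cultures carried hepatocyte transcripts: the 8 hepatocyte markers (ALB, APOA1, APOB, TTR, SERPINA1, TF, FGB, CYP3A4) summed to between 14591 and 21270 FPKM in the control libraries. At PCB 126 1 µM the sum ranged from 5693 to 14478 FPKM, and 2 of the 8, FGB and TTR, passed the test, both lower. The 8 biliary markers summed to 225 to 454 FPKM in control and 122 to 216 FPKM at 1 µM, with EPCAM and KRT23 at a median under 0.1 FPKM over all libraries. Only 3 of these 8 entered the test, and 0 passed at 1 µM. The 7 mesenchymal markers summed to 41.02 to 91.8 FPKM in control and 50.8 to 190 FPKM at 1 µM; of these COL3A1 fell and no other passed the test. The 4 cycling markers summed to 25.1 to 62.1 FPKM in control and 13.2 to 33.2 FPKM at 1 µM, and 0 of them passed by limma. Over the PCB 126 dose steps, where 3.78% of all genes passed, ALB, FGB, TF, TTR, SPP1 and TOP2A were lower. Of the mesenchymal markers 1 was higher and 2 were lower. At 1 µM against the herbicide libraries, where 9.37% passed, the same 4 hepatocyte markers, KRT19, SPP1, CCNB1, MKI67 and TOP2A were lower. There 2 mesenchymal markers were higher and 2 lower. The part of these lists in the member results was not tested. On the first principal component of all genes 9 of the 40 libraries stood apart. They were control replicate 5, 10 nM replicates 3 and 5, and 1 µM replicates 1 and 5, with glyphosate 10 µg/L replicate 5, glyphosate 0.1 g/L replicate 2, and Roundup replicates 4 and 5. Structural RNA (RN7SL1, RN7SL2, RN7SK, RMRP, RPPH1) took 20.7% to 31.5% of the summed FPKM of those libraries and 14.3% to 34.2% of the others. The libraries apart had 71169 to 111986 transcripts above 0 and the others 99547 to 118592. Their 75th percentile of gene FPKM above 0 was 2.47 to 4.16, against 3.34 to 5.05 in the others. The median of all genes moved by -0.26 on the log2 scale at 1 µM and by -0.21 at 10 nM, with no scaling between libraries. After scaling to a common 75th percentile, the differences at 1 µM were 2.31 for IGFBP1 and -1.61 for IGFBP5.

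The exposure itself was visible in CYP1A1, the classic target of the aryl hydrocarbon receptor. It ranged from 0 to 7.69 FPKM in the control libraries, from 92.1 to 377 FPKM at 10 nM and from 85.2 to 389 FPKM at 1 µM. The 100 pM libraries were uneven, from 1.09 to 319 FPKM.

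Of the 10 members, 7 passed the filter of a variance of FPKM above 1 (IGF1R and the 6 binding proteins) and entered the limma fit of log2(FPKM + 1), in which differences of low genes are understated. IGF1, IGF2 and IGFALS did not pass and were tested one by one. At PCB 126 1 µM against control, 2 of the 7 members passed the adjusted threshold of 0.05, where 1.87% of the 9755 genes tested did. IGFBP1 rose and IGFBP5 fell. At 10 nM none of the 7 passed (0.205% of all genes; 3 members had an unadjusted p under 0.05, as did 4.85% of all genes), and at 100 pM none passed (0% of all genes; 0 members had an unadjusted p under 0.05, against 1.19% of all genes). The PCB 126 and herbicide comparisons below share their control libraries.

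IGFBP1 rose with PCB 126. In the control libraries it measured 40.4, 25.8, 11.5, 28.6 and 31.4 FPKM, and at 100 pM 48.7, 42.3, 27.4, 55.2 and 140 FPKM. At 10 nM the libraries measured 185, 140, 24.3, 147 and 149 FPKM, and at 1 µM 41.4, 186, 130, 227 and 96.2 FPKM. All 5 libraries at 1 µM lay above every control library, which held for 0.707% of the genes tested, but the lowest was only just above the highest control. At 10 nM 4 libraries were far above control and replicate 3 was within its range, and at 100 pM 4 libraries lay above the highest control library, replicate 5 far above the others and replicate 3 within the control range. The mean FPKM was 2.28 times that of control in the 100 pM group, 4.69 times at 10 nM and 4.94 times at 1 µM.

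The fitted difference of IGFBP1 from control was 2.15 ± 0.50 (SE, log2 scale) at 1 µM, with an adjusted p of 0.0202 by limma. It was 2.02 ± 0.50 at 10 nM with an adjusted p of 0.149, and 1.04 ± 0.50 at 100 pM with an adjusted p of 1. Between 10 nM and 1 µM the difference was 0.13, with a 95% interval from -0.91 to 1.17, so neither a rise nor a plateau was resolved. Over the 4 dose levels from control to 1 µM, taken as equal steps, the slope was 0.74 ± 0.16 per step (adjusted p = 0.00638). The call at 1 µM was lost when control replicate 2 or 3, or 1 µM replicate 2 or 4, was left out, with adjusted p between 0.0511 and 0.0766. With no filter, which tests 43478 genes, the adjusted p was 0.149 at 1 µM and 0.0545 over dose steps. Transcript ENST00000275525 held 100% of the IGFBP1 signal. Tested by limma among 21181 transcripts, it missed the threshold at 1 µM (adjusted p = 0.104) and passed over dose steps (adjusted p = 0.0394).

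The 2 low libraries, 10 nM replicate 3 and 1 µM replicate 1, were among those that stood apart on the first component. Without the libraries apart, IGFBP1 averaged 157 ± 24.1 FPKM at 10 nM (n = 3) and 181 ± 49.0 FPKM at 1 µM (n = 3), against 26.6 ± 11.9 FPKM in control (n = 4). The difference was then 2.64 at 10 nM (adjusted p = 0.0159) and 2.81 at 1 µM (adjusted p = 0.00284). The same libraries were low in CYP1A1: 92.1 FPKM in 10 nM replicate 3 and 85.2 FPKM in 1 µM replicate 1, each the lowest of its group in both genes. The library highest in CYP1A1 was also the highest in IGFBP1 in each of the 3 PCB 126 groups (replicate 5 at 100 pM, 1 at 10 nM and 4 at 1 µM). At 100 pM the lower libraries did not match: replicate 4 had the lowest CYP1A1, 1.09 FPKM, and the second highest IGFBP1, 55.2 FPKM, while replicate 3 was lowest in IGFBP1. Spearman's rho between the genes was 0.4 at 100 pM, 0.7 at 10 nM and 0.9 at 1 µM. After scaling to a common 75th percentile it was 0.7 in each of the 3 groups. This is a description of 5 libraries per group, and both genes in a library share its depth and handling.

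**Figure D2:**
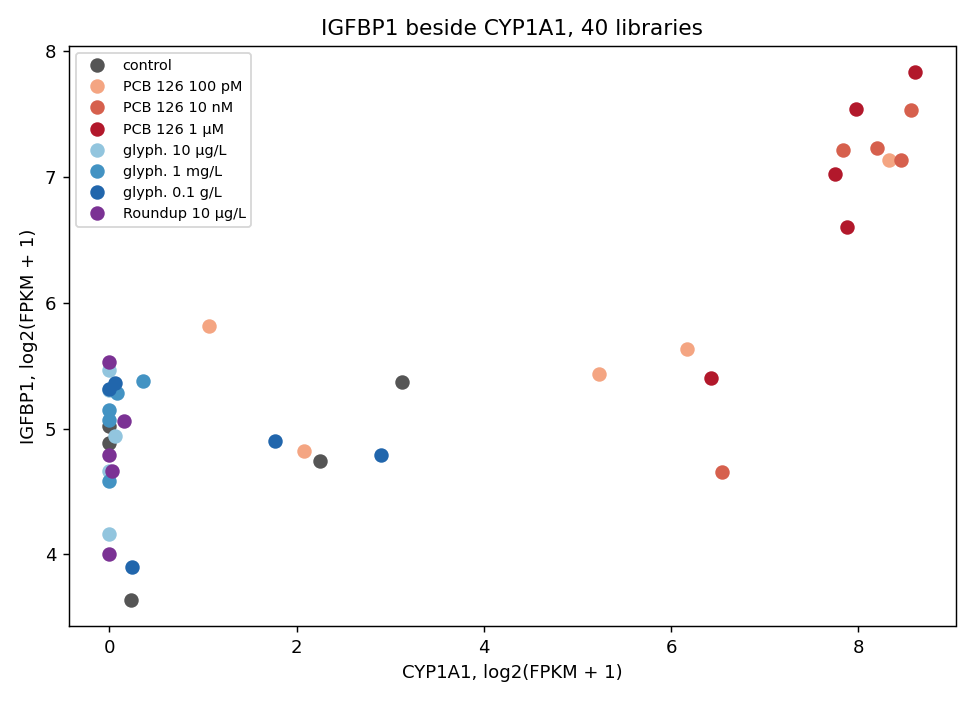
IGFBP1 is plotted against CYP1A1, both as log2(FPKM + 1), with 1 point per library coloured by group. The PCB 126 libraries with high CYP1A1 lie at the upper right, and 10 nM replicate 3 and 1 µM replicate 1 lie below the rest of their groups.

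IGFBP5 fell with PCB 126. It measured 4.504, 11.8, 13.9, 6.53 and 4.24 FPKM in the control libraries and 2.98, 7.86, 10.1, 7.75 and 2.52 FPKM at 100 pM. At 10 nM it measured 1.83, 3.50, 2.19, 3.70 and 0.930 FPKM, and at 1 µM 0.539, 2.31, 2.31, 1.92 and 1.18 FPKM. All 5 libraries at 10 nM (0.246% of genes tested) and all 5 at 1 µM (1.64% of genes tested) were below every control library, while the 100 pM libraries overlapped with control. The control mean was 3.37 times the mean at 10 nM and 4.96 times that at 1 µM.

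The fitted difference of IGFBP5 was -1.72 ± 0.36 at 1 µM (adjusted p = 0.00818), -1.36 ± 0.36 at 10 nM (adjusted p = 0.184) and -0.36 ± 0.36 at 100 pM (adjusted p = 1). The slope over dose steps was -0.62 ± 0.11 per step (adjusted p = 0.00144), and the F-test across the 4 groups gave an adjusted p of 0.0179. IGFBP5 was the only member of the 7 past that F-test, which called 1.39% of all genes, and IGFBP1 stood beside it with an adjusted p of 0.0519. Without control replicate 2 the F-test gave 0.0556 for IGFBP5. The difference at 1 µM kept its call in each of the 20 fits with 1 library left out, with adjusted p of at most 0.0400, and missed it with no filter (0.0666). Without the libraries apart the difference was -1.57 (adjusted p = 0.0437). Transcript ENST00000233813 held 95.5% of the IGFBP5 signal and fell by 1.79 at 1 µM (adjusted p = 0.0470 over 21181 transcripts). This transcript passed over dose steps (adjusted p = 0.0100) and missed the threshold in the F-test (adjusted p = 0.107).

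IGFBP6, a binding protein that prefers IGF2, measured 3.85, 7.95, 6.92, 8.00 and 4.29 FPKM in the control libraries and 3.60, 3.11, 2.98, 4.01 and 1.36 FPKM at 1 µM. The highest library at 1 µM lay just above the lowest control library, so the groups overlapped. The difference was -0.84 ± 0.30 at 1 µM (adjusted p = 0.178) and -0.81 ± 0.30 at 10 nM (adjusted p = 0.672). The slope over dose steps was -0.34 ± 0.10 per step (adjusted p = 0.0442). This call was lost in 13 of the 20 fits with 1 library left out, with adjusted p up to 0.135 without 1 µM replicate 5. With IGFBP1 and IGFBP5 it made 3 of 7 members past the test over dose steps, which 3.78% of all genes passed. The IGFBP6 sum was divided unevenly: in 33 libraries ENST00000301464 had FPKM and ENST00000548547, 8 bases different in length, had none, in 5 libraries it was the reverse, and 2 libraries had both. The transcripts were therefore not read separately.

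IGFBP3, the main circulating carrier, measured 21.5, 19.5, 14.7, 16.5 and 10.7 FPKM in the control libraries and 18.4, 30.2, 23.5, 31.7 and 22.9 FPKM at 1 µM. In 4 of 5 libraries at 1 µM it was above every control library. The difference was 0.59 ± 0.27 (adjusted p = 0.330) and did not pass. It passed where libraries were scaled to a common 75th percentile, with a difference of 0.75 and an adjusted p of 0.00612, and without the libraries apart, with 0.63 and 0.0311. It also passed with quantile normalization, the unmoderated model and array weights (adjusted p 0.000987 to 0.00693), and in no other alternative.

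IGFBP2 and IGFBP4, the most abundant members in control, did not pass in any PCB 126 comparison. At 1 µM their differences were -0.15 (95% interval -0.68 to 0.37) and -0.08 (-0.61 to 0.44). IGF1R ranged from 3.67 to 13.3 FPKM at 1 µM and from 6.62 to 17.5 FPKM in control, a difference of -0.35 (95% interval -0.99 to 0.29). These intervals leave room for changes of the size of the median shift over all genes.

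**Figure D3:**
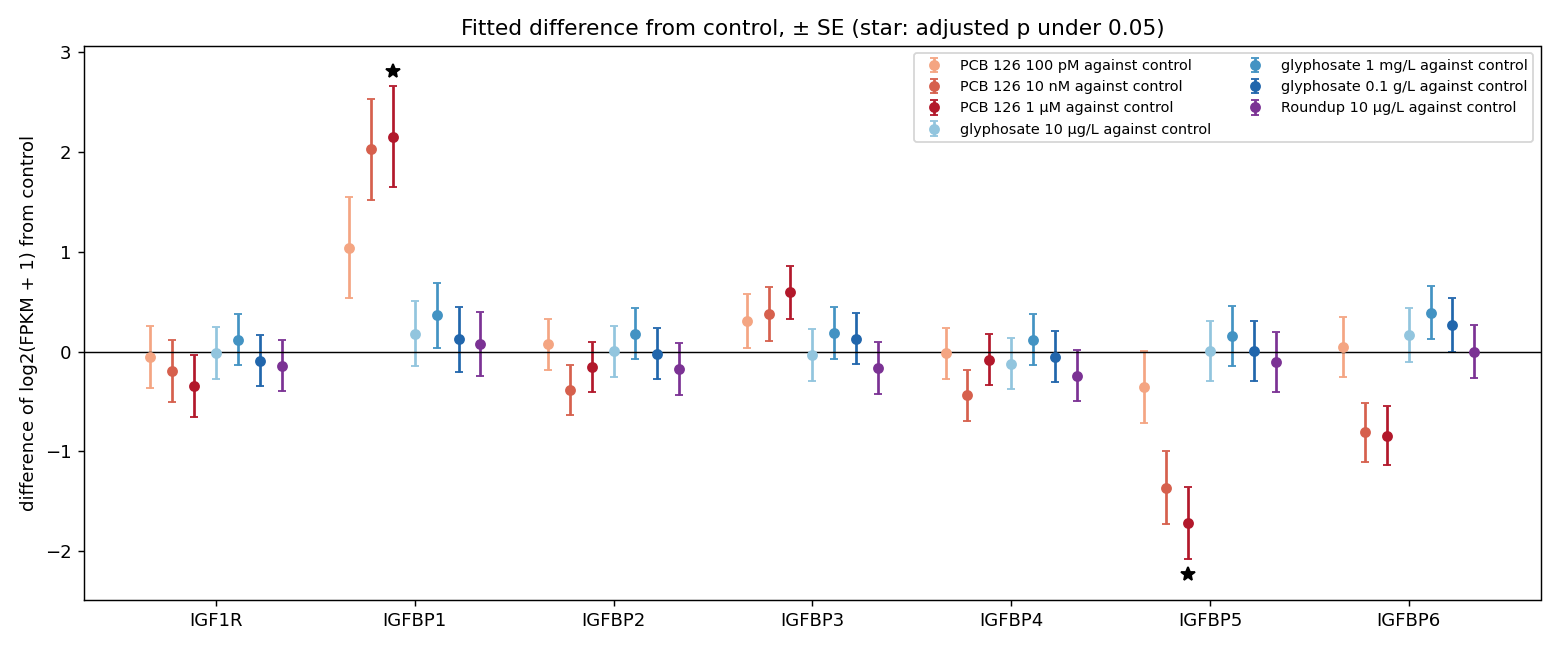
The 7 members that passed the filter are on the horizontal axis, and the vertical axis gives the fitted difference of log2(FPKM + 1) from control with bars of 1 SE for each exposed group. Stars mark IGFBP1 at 2.15 and IGFBP5 at -1.72, both at PCB 126 1 µM, and the 4 herbicide groups lie between -0.24 and 0.39.

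IGF1, IGF2 and IGFALS were compared with control in each of the 7 exposed groups, 21 exact permutation tests (2-sided, 252 splits, smallest possible p 0.00794, unadjusted). IGF1 averaged 0.985 ± 0.297 FPKM at 1 µM against 1.70 ± 0.659 FPKM in control (exact permutation p = 0.0714, the lowest of the 21). For IGFALS the exact permutation p ranged from 0.262 to 1 and for IGF2 from 0.286 to 0.921.

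The make-up of the binding-protein transcripts also differed between the groups. IGFBP1 took 9.44% ± 4.15 of the summed FPKM of IGFBP1 to IGFBP6 in control, 17.8% ± 10.6 at 100 pM, 35.02% ± 10.97 at 10 nM and 33.1% ± 11.8 at 1 µM. IGFBP4 went from 44.5% ± 1.08 to 30.6% ± 3.77 at 10 nM and 33.5% ± 6.69 at 1 µM, and IGFBP5 from 2.67% ± 1.26 to 0.418% ± 0.175 at 1 µM. These shares sum to a fixed total, so a higher IGFBP1 share lowers the others, and they were not tested. The summed FPKM ranged from 225 to 324 in control and from 298 to 549 at 1 µM.

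**Figure D4:**
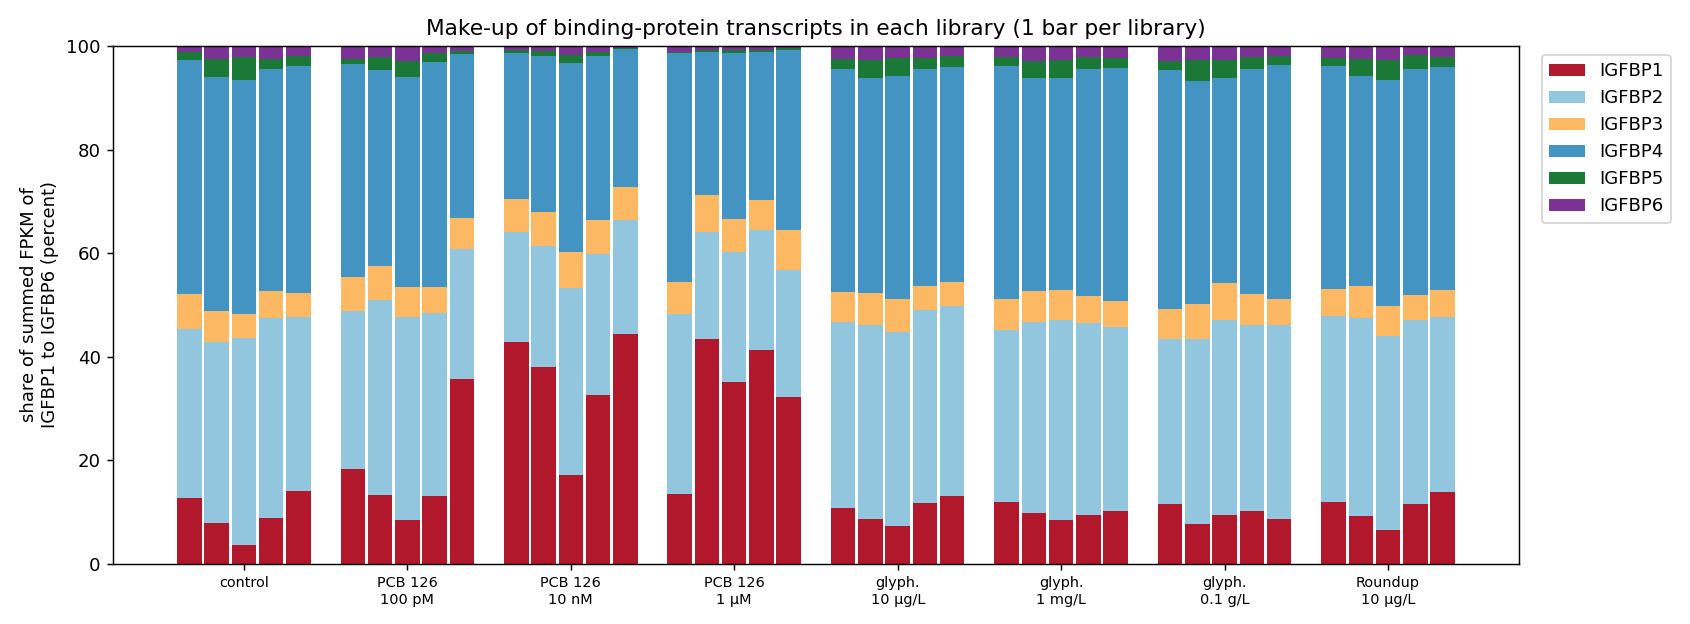
Each bar is 1 library, stacked by the percent of the summed FPKM of IGFBP1 to IGFBP6 that each gene holds, grouped by exposure. The IGFBP1 part is between 3.58% and 14.0% in the control libraries and between 13.5% and 43.4% at PCB 126 1 µM.

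Neither glyphosate nor Roundup gave a member past the threshold. Limma called 0 of 9533 genes (0%) and 0 of 7 members in each of the 4 comparisons with control and in Roundup against glyphosate at the matched dose of 10 µg/L, and 0 members had an unadjusted p under 0.05 in any of the 5. With array weights, which give less weight to more variable libraries, limma called 5.77% of all genes and 0 members for Roundup against control, and 8.57% and 1 member, IGFBP2, for Roundup against glyphosate. Without weights, the share of all genes with an unadjusted p under 0.05 was 0.997%, 1.31% and 0.881% for glyphosate at 10 µg/L, at 1 mg/L and at 0.1 g/L, 1.73% for Roundup and 1.27% for Roundup against glyphosate. IGFBP1 ranged from 13.9 to 45.1 FPKM over the 20 herbicide libraries, IGFBP5 from 3.68 to 12.1 FPKM and IGFBP6 from 3.57 to 9.79 FPKM. The IGFBP1 difference at glyphosate 0.1 g/L was 0.12, with a 95% interval from -0.54 to 0.78, and at Roundup 10 µg/L it was 0.08, from -0.59 to 0.74. Roundup differed from glyphosate at 10 µg/L by -0.10 for IGFBP1 (95% interval -0.76 to 0.56). Changes within these intervals remain possible, and the smallest change that 5 libraries could detect was not computed.

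The herbicide libraries also gave a comparison for PCB 126 1 µM whose difference does not use the shared controls. All 40 libraries were in that fit, so the controls still entered its filter and its estimate of spread. There 3 of 7 members passed, where 9.37% of 9732 genes did: IGFBP1 was higher by 1.97 ± 0.35 (adjusted p = 0.000105), and IGFBP5 lower with -1.73 ± 0.26 (adjusted p = 6.43e-06). IGFBP6 was lower with -1.04 ± 0.22 (adjusted p = 0.00122), and IGFBP3 with 0.56 ± 0.20 did not pass (adjusted p = 0.0739). All 5 libraries at 1 µM were below every herbicide library in IGFBP5, which held for 0.822% of the genes tested, and 4 of 5 were above every herbicide library in IGFBP1.

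Other genes of the axis were read from a list of 53 receptors, signalling genes, proteases and their inhibitors, growth hormone genes, IGF2 RNA regulators and IGFBP relatives, of which 38 passed the filter in the PCB 126 table. At 1 µM 3 of the 38 passed, 1 higher and 2 lower, beside 1.87% of all genes. The list was drawn up with earlier results of these data known, so such counts are not a test of the list. STC2, a stanniocalcin that inhibits the IGFBP-cleaving protease PAPPA, rose by 3.29 ± 0.34 (adjusted p = 2.3e-06), from 0.175 to 1.08 FPKM in control to 9.92 to 23.6 FPKM at 1 µM. The control libraries alone varied too little to pass the filter, so STC2 entered the test through the PCB 126 libraries where it was high. Its relative STC1 fell, with -1.47 ± 0.29 (adjusted p = 0.00481), as did CTGF, a matricellular protein, with -1.29 ± 0.28 (adjusted p = 0.0116). STC2 was also the only one of the list past the threshold at 10 nM (2.25 ± 0.34, adjusted p = 0.00127).

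Over dose steps 4 of 38 passed, beside 3.78% of all genes, with IGFBP7 added at -0.31 ± 0.08 per step (adjusted p = 0.0275). The other 34 had slopes between -0.34 and 0.26, with a median of -0.10, beside a median of -0.10 over all genes. Against the herbicide libraries 10 of 39 passed, 3 higher (STC2, CYR61, PAPPA) and 7 lower (STC1, CTGF, IGFBP7, CISH, GRB10, IGF2BP3, PIK3R1). Over all genes 9.37% passed there, 167 higher and 745 lower. PAPPA was higher by 0.81 ± 0.19 (adjusted p = 0.00385). None of 36 passed in a herbicide comparison by limma, where at most 2 had an unadjusted p under 0.05. Array weights called 2 for Roundup against control and 3 for Roundup against glyphosate. Of the 5 proteases and inhibitors listed, 4 passed the filter in the PCB 126 table and only 2 in the herbicide table. Genes outside the filter had no herbicide test.

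The genes with the most similar pattern over the 40 libraries, among 9260 genes after scaling, were DHRS3 (Spearman rho 0.77), TRIM15 (0.75) and SLC7A2 (0.75) for IGFBP1. For IGFBP5 they were PEG10 (0.94), ZBED3 (0.90) and JAG1 (0.89), and for IGFBP6 ABHD12 (0.86), DUSP10 (0.84) and EEF2K (0.84). For IGFBP4 they were TM4SF5 (0.85), TOLLIP (0.83) and SEPHS2 (0.82). Between members, IGFBP1 and IGFBP5 had a rho of -0.89 and IGFBP2 and IGFBP4 of 0.80. These are descriptions over libraries that share exposure groups.

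On GRCh38, the gene models of IGFBP1 (plus strand, chromosome 7, 45888357 to 45893668) and IGFBP3 (minus strand, 45912245 to 45921874) lie tail to tail with 18576 bases between them. Their most abundant transcripts have 4 and 5 exons. IGFBP2 (plus strand, chromosome 2, 216632828 to 216664436) and IGFBP5 (minus strand, 216672105 to 216695525) lie likewise with 7668 bases between them. In each pair 1 gene passed the test at 1 µM and its neighbour did not. The difference between neighbours was not tested. Over the 40 libraries after scaling, Spearman's rho was 0.69 for IGFBP1 and IGFBP3 and 0.25 for IGFBP2 and IGFBP5. IGFBP6 lies on the plus strand of chromosome 12 at 53097436 to 53102345.

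Promoter windows of 300 bases around the RefSeq start were found for 8 members, in 11 windows. No window was found for IGFBP1 or IGF2, so the promoters of these members were not searched. The 11 windows were searched on both strands for GCGTG, the core of the element that the aryl hydrocarbon receptor binds (CACGC on the other strand). Of all 35116 windows of this length, 36.5% hold the core, and 3 of the 11 member windows do. The windows of IGFBP5 and IGFBP6 are shown because these members passed a PCB 126 test. Those of IGFBP3 and IGF1R, which passed none, are shown because they hold the most cores among the 8 members searched. The 4 windows follow in that order. They are given 5′ to 3′ in the direction of the gene, with the cores in capitals, at chr2:216695500-216695799 (minus), chr12:53097417-53097716 (plus), chr7:45921223-45921522 (minus) and chr15:98648289-98648588 (plus).
IGFBP5: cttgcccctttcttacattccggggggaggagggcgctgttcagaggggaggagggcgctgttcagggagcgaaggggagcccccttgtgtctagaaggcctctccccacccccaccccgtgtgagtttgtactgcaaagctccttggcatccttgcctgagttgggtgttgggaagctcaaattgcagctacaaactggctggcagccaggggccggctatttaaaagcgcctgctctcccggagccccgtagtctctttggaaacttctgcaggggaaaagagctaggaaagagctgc
IGFBP6: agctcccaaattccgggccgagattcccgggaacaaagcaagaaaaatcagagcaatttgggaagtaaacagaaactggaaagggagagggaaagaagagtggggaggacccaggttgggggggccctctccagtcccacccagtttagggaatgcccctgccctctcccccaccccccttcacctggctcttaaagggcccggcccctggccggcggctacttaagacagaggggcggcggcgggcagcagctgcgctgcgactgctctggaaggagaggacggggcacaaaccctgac
IGFBP3: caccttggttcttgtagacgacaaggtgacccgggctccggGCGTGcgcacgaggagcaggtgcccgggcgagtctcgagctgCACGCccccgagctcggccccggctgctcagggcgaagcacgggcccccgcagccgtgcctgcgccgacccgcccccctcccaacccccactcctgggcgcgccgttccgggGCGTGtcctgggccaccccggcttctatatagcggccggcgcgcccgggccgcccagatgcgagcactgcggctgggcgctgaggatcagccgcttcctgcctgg
IGF1R: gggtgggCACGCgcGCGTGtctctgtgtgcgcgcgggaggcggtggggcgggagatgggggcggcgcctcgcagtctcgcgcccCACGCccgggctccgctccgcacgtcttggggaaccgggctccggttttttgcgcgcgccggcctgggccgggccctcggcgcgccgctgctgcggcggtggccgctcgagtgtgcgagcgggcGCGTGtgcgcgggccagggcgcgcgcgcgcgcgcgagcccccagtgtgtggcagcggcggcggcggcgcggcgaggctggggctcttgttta
The IGFBP3 window holds 3 cores, that of IGF1R 4, and those of IGFBP5 and IGFBP6 hold 0. At least 3 cores occur in 4.30% of all windows. Among the other members with a window, 1 of the 3 IGFBP2 windows holds 1 core. A match describes these letters and no binding was measured.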

How the data were processed

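RNA from 40 libraries of HepaRG cells was sequenced after ribosomal RNA depletion. The authors used HISAT2 for alignment (GRCh38) and StringTie for assembly and quantification, as the submitters' processing notes also name with HISAT. The deposited values are FPKM, 234960 transcripts in each library, not scaled between libraries. The deposited tables hold values below 0, which FPKM cannot be (4 in the PCB 126 table, 6 in the herbicide table). The columns that hold them were classed as a score in the unit check of the deposited tables and analysed as FPKM like the rest, with these values set to 0. FPKM hold no read counts, so no count test or counting interval was used, depth is not in these files, and the 5 libraries per group limit the precision. Replicate numbers follow the order of the libraries and are not given in the labels.

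FPKM were summed per gene name, and genes with a variance of FPKM above 1 were kept. Differences of log2(FPKM + 1) were tested with limma 3.58.1 in R 4.3.3, all groups of a table in 1 fit, with Benjamini-Hochberg adjustment over all genes tested and a threshold of 0.05. The fit was tested on simulated data. Members outside the filter had exact permutation tests. Comparisons between neighbouring PCB 126 doses were added after the data were seen. Named genes were the 10 members, CYP1A1, list genes past the threshold, and the 3 genes with the highest Spearman rho for the called members and the one most abundant in control. The members and lists were chosen with earlier results of these data known. Alternatives were a pseudocount of 0.1, other filters, scaling by the 75th percentile or quantiles, an unmoderated linear model with library size as a term, a replicate block, 2 groups only, all 40 libraries in 1 fit, array weights, sums over assembled loci, the most abundant transcript, and leaving out libraries. Other steps used Python 3.11.15, numpy 2.4.6, pandas 2.3.3 and matplotlib 3.10.9.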

Additional observations from a re-analysis of the deposited data

Results flagged for a closer look

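Of the 80 member and group sets with 5 libraries each, 6 held a value whose gap to the nearest other library was over 0.71 of the range of its group, which chance gives in about 1 in 20 sets. IGFBP1 measured 140 FPKM in 100 pM replicate 5, against 27.4 to 55.2 FPKM in the other 4 libraries. IGFBP1 measured 24.3 FPKM in 10 nM replicate 3, against 140 to 185 FPKM in the others. IGFBP4 measured 98.4 FPKM in control replicate 5, against 138 to 146 FPKM, and 183 FPKM in 100 pM replicate 4, against 109 to 131 FPKM. IGF2 measured 0.0210 FPKM in 10 nM replicate 4 and 0.0129 FPKM in glyphosate 1 mg/L replicate 3, and it was listed at 0 in the other libraries of both groups. There the gap equals the range whatever the value, so the rate of 1 in 20 does not apply to these 2. The flagged values of IGFBP1 and IGFBP4 are about as many as that rate gives over the sets of the other members.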

How the results depend on the processing

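The direction of each called member difference was the same under all alternatives that gave a value. At 10 nM, where no member passed, 75th-percentile scaling, the replicate block, the fit of 2 groups only and the fit without the libraries apart gave 1, array weights, all 40 libraries in 1 fit and the locus sum gave 2, and quantile normalization gave 3; with 1 library left out the count was 0 to 1, the 1 being IGFBP1 without 10 nM replicate 3 (adjusted p = 0.00518). At 1 µM, against 2 in the report, no filter gave 0, array weights 4, and 75th-percentile scaling, quantile normalization, the unmoderated model, the replicate block and the fit without the libraries apart 3, and with 1 library left out the count was 1 to 2. The third member was IGFBP6 with the block (adjusted p = 0.0396) and IGFBP3 in the other fits that gave 3. Over dose steps, against 3, no filter gave 1, a pseudocount of 0.1 and the most abundant transcript 2, and 75th-percentile scaling, array weights and the fit without the libraries apart 4, and with 1 library left out the count was 2 to 3. In the F-test, against 1, no filter gave 0, the locus sum 2, 75th-percentile scaling, quantile normalization, the unmoderated model and the replicate block 3, and array weights 4; with 1 library left out it was 0 to 2. Without the libraries apart the F-test also gave 1, but IGFBP1 in place of IGFBP5. Against the herbicide libraries the count was 3 to 4 throughout. Over all genes 912 passed there in the report, 749 to 3121 in the alternatives and 417 to 1292 with 1 library left out. Array weights gave 1 member (IGFBP2) in Roundup against glyphosate, where over all genes they gave 817, 795 of them lower, against 0 in the report; for Roundup against control they gave 550 genes, 530 lower, against 0. With no filter 43478 genes were tested in the PCB 126 table. The IGFBP6 slope missed the threshold with a pseudocount of 0.1, no filter, quantile normalization, the unmoderated model and the most abundant transcript (adjusted p 0.0529 to 0.537). Genes of the pathway list past the threshold numbered 3 to 9 at 1 µM, 1 to 6 at 10 nM, 4 to 10 over dose steps and 6 to 16 against the herbicide libraries. The counts over all genes, given below, moved as well, and the cause of these changes was not tested.

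Over all genes 182 passed at 1 µM, 63 of them higher, against 590 (247 higher) with 75th-percentile scaling, 1085 (532 higher) with quantile normalization, 823 (448 higher) with the unmoderated model, 895 with array weights, 520 without the libraries apart, 397 with locus sums, 357 with the replicate block and 298 with all libraries in 1 fit. At 10 nM these were 20 in the report and 14 to 223. The labels state no replicate numbers. Deviations of same-numbered libraries of control and the 7 exposed groups had correlations from -0.0515 to 0.189, over 0.1 in 0 to 4 of the 5 pairs of a group, and 2 to 4 of its 5 libraries correlated best with their own number. The mean over same numbers was above that over other numbers in each group. No group had all pairs over 0.1. Same-numbered libraries also carry neighbouring numbers in their names, such as 1 to 8 for replicate 1. The fit as reported ignored this pairing, and the labels do not say what libraries of a number share.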
